A study of Homo sapiens with 6 samples.

Results

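The 29 genes described here make cholesterol, set the activity of its master regulator SREBP2, or move and store sterol inside the cell. They were taken by symbol from a list of the pathway, and all 29 were found among the 45372 gene IDs of each table. The list does not hold every gene of the pathway. The cells were HUVECs, primary wild-type human endothelial cells of the umbilical vein, transfected by a lipid reagent, with a labelled time of 48 h. The mimic group (3 libraries) received 50 nM of a synthetic miR-409-3p, and the control group (3 libraries) received 50 nM of a non-specific control with the same reagent, so both groups share the transfection itself. The titles of all 6 libraries also call the cells non treated, without saying which treatment is meant. The libraries are labelled as biological replicates, but no label names separate donors, so p-values measure the spread between these libraries.

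Cholesterol is built from acetyl-CoA by way of mevalonate, farnesyl diphosphate, squalene and lanosterol. When sterol in the endoplasmic reticulum is plentiful, INSIG proteins hold the SCAP and SREBP2 complex there. When it falls, SCAP escorts SREBP2 to the Golgi, where it is cut, and its released part turns on the enzymes of the pathway and INSIG1. In endothelium, cholesterol builds the caveolae of the plasma membrane, and SREBP2 is known to respond to disturbed flow.

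The agent was a microRNA, so the pairing of its seed with these transcripts is shown first. The mature sequence, credited to RefSeq (GRCh38.p14, chr14:101065346-101065367, plus strand), is printed with its seed, bases 2 to 8, in capitals.
hsa-miR-409-3p: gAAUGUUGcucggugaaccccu

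In the longest annotated 3′ UTR of each gene, 8 of the 29 held a 7mer or 8mer seed site, 27.6%. The share was 22.8% of 11852 tested protein-coding genes searched the same way. The site was CAACATTA (8mer) in NPC2, CAACATT (7mer-m8) in HMGCS1, INSIG1 and LBR, and AACATTA (7mer-A1) in MSMO1, INSIG2, SOAT1 and FADS1. The 8mer and 7mer-m8 hold the complement of all 7 seed bases. The 7mer-A1 holds that of bases 2 to 7 only, and its last A, like that of the 8mer, pairs with no seed base. A further 5 genes held only the 6mer AACATT, and 16 held none, among them SREBF2, SCAP, SQLE and SCD. The windows below are reference sequence of the 3′ UTR exon (GRCh38, GENCODE 29), on the strand of the gene, with the site in capitals. NPC2 is shown because it alone had the 8mer, HMGCS1, INSIG1 and LBR for the 7mer-m8, and MSMO1 because it had the largest difference between groups.
NPC2, chr14:74480001-74480030, minus strand: tttttttttaaCAACATTAacttgtggcct
HMGCS1, chr5:43290655-43290684, minus strand: ggggaatgtgaCAACATTccccagtgtggt
INSIG1, chr7:155310169-155310198, plus strand: tactaagttttCAACATTgtgttctttttg
LBR, chr1:225401502-225401526, minus strand: ataaaatgtagCAACATTttgatca
MSMO1, first site, chr4:165342054-165342083, plus strand: gtgataaaaagAACATTAacaacctttaat
MSMO1, second site, chr4:165343080-165343109, plus strand: ttccagttttaAACATTAactgtcaccttt

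The median log2 fold change, mimic minus control, was -0.03 for the 8 genes with a 7mer or 8mer and -0.03 for the other 21. Over the 11852 tested protein-coding genes it was -0.02 with such a site and -0.02 without. A fold change here is the difference of mean log2(TPM + 1), where TPM is a unit that sets a gene's reads against its length and against the total of its library. NPC2, with the longest site, was at 0.03, LBR at 0.03, HMGCS1 at -0.03 and INSIG1 at -0.12. MSMO1, with 2 sites of the 7mer-A1 kind and a 6mer, was at -0.25. A match says only that the letters are there, and binding was not measured.

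An estimate from the smallest steps of the TPM values gave 29800000 to 35800000 assigned reads per library, and 164 to 27682 reads per library for single genes of the set. Of 8 endothelial markers (PECAM1, CDH5, VWF, KDR, TEK, CLEC14A, ERG and EGFL7) all were tested and 0 passed, and their summed level was higher in every mimic library (5384 to 5445 TPM) than in any control library (5095 to 5314 TPM). The part of this in the results below was not tested. The 6 fibroblast markers summed to 9.49 to 12.1 TPM in control and 10.5 to 11.5 TPM in mimic libraries, and the 4 smooth muscle markers to 7.50 to 10.1 and 8.23 to 9.49 TPM. The 4 leukocyte markers stayed at or below 0.522 TPM in sum with PTPRC and CD3E at 0 in all 6 libraries, the 4 epithelial markers at or below 2.66 TPM with KRT5 and KRT14 at 0, and all 4 erythroid markers were listed at 0. In bulk RNA such as this, fewer cells of a type and less RNA per cell cannot be told apart.

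Mean levels in control cells ran from 6.91 ± 0.229 TPM for TM7SF2 to 570 ± 29.6 TPM for SCD (mean ± SD, n = 3). Summed over the 29 genes, the level was 3332, 3511 and 3318 TPM in control libraries 1 to 3 and 3183, 3347 and 3383 TPM in mimic libraries 1 to 3. The groups overlapped in this sum, with mimic library 1 lowest and control library 2 highest. All 29 genes passed the filter on low values.

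**Figure D1:**
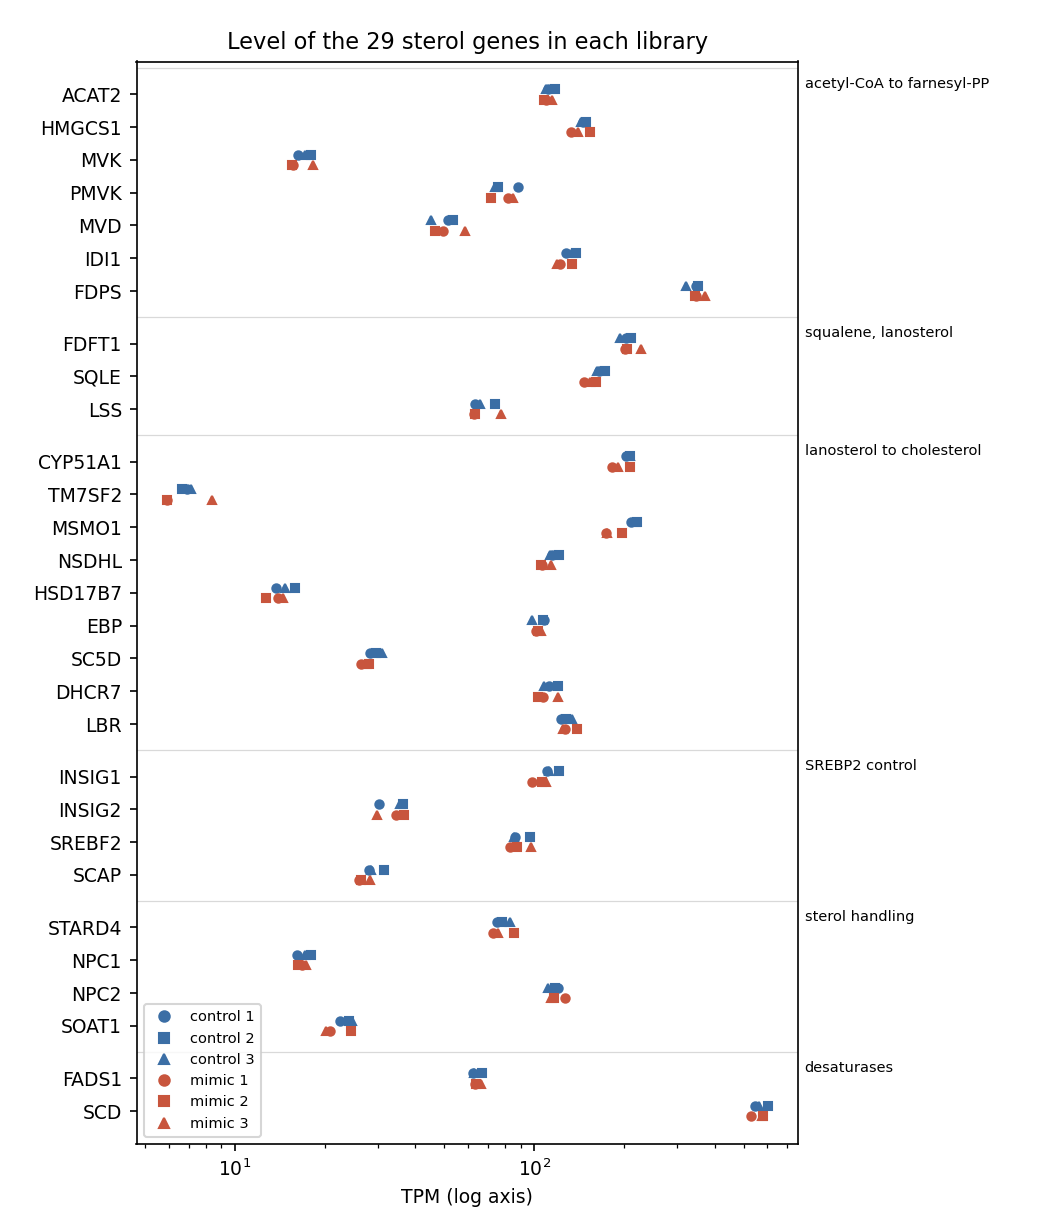
TPM of each of the 29 genes in the 6 libraries on a log axis, with control libraries in blue and mimic libraries in red and the replicate number given by the symbol; rows follow the pathway. The genes run from about the level of TM7SF2 (6.91 TPM in control) to that of SCD (570 TPM), and for most genes the red and blue points overlap.

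By limma with Benjamini-Hochberg adjustment over all 13680 genes tested, 0 of the 29 genes rose and 0 fell at an adjusted p under 0.05, against 0.132% of all genes higher (18), 0.300% lower (41) and 0.431% in either direction. Quantile scaling gave 34 higher and 42 lower over all genes, and again 0 of the 29. Leaving out any 1 of the 6 libraries gave 3 to 20 higher and 5 to 27 lower over all genes, fewest higher without mimic library 1 and fewest lower without control library 2, and testing protein-coding genes alone gave 54 and 122. In each of these fits 0 of the 29 passed. At an unadjusted p under 0.05, 1 of the 29 was lower and 0 were higher, against 7.64% of all genes lower and 3.05% higher. Over the 17 other settings tried, the number lower ran from 1 to 5 of the 29, highest without mimic library 2. The share of all genes in those fits is not given here. The mimic libraries all lay below the control libraries for 4 genes (MSMO1, SQLE, INSIG1 and SC5D), 4 of 29 where 10.5% of all genes did so, and they all lay above for 0, where 5.16% of all genes did. The fold change was below 0 for 23 of the 29 genes, against 56.6% of all genes tested, and the median was -0.03, against -0.02 for all genes. This count turned on the scaling, with 16 of 29 below 0 under median-of-ratios scaling, 19 under quantile scaling and 17 after adjustment for GC content. The median of all genes moved as well, to 0.0034, 0.0035 and 0.01 in these fits, so 56.6% is not the share to set beside these counts. The median of the 29 was -0.0049, -0.02 and -0.01 in the same fits. The 95% interval held 0 for 28 of 29 genes. Over the 29 genes the intervals reached from -0.39 for MSMO1 to 0.26 for MVD on the log2 scale, which is 0.764 to 1.20 times the control level, so larger differences than these lay outside every gene's own interval.

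**Figure D2:**
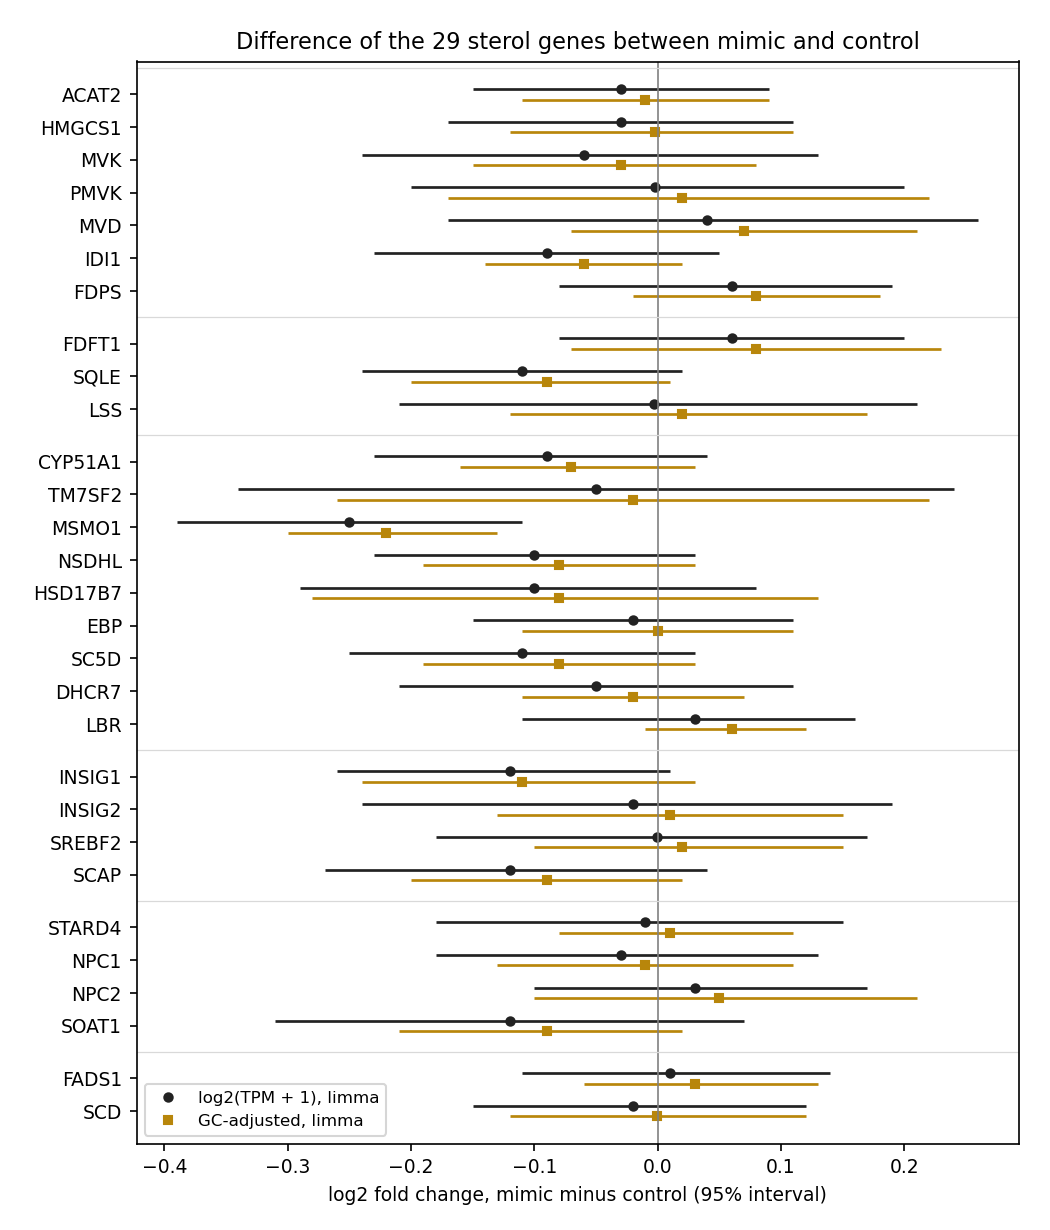
log2 fold change of each gene, mimic minus control, with its 95% interval, from limma on log2(TPM + 1) in black and after adjustment for transcript GC content in gold; rows follow the pathway and the grey line marks no difference. MSMO1, at -0.25 and -0.22, is the 1 gene of the 29 whose intervals leave out 0.

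In the first steps, from acetyl-CoA to farnesyl diphosphate, 5 of 7 genes were below 0 and 2 above (4 and 3 under median-of-ratios scaling, quantile scaling or GC adjustment), and 0 passed the threshold. Fold changes ran from -0.09 to 0.06. ACAT2 and HMGCS1 feed the pathway, the first by joining acetyl-CoA units and the second by making HMG-CoA. HMGCS1 measured 145, 149 and 143 TPM in control libraries 1 to 3 and 133, 154 and 140 TPM in mimic libraries 1 to 3, so the mimic libraries lay on both sides of the controls. Its log2 fold change was -0.03 (95% interval -0.17 to 0.11). ACAT2 stood at 113 ± 4.09 TPM in control cells and 111 ± 3.59 TPM with the mimic (mean ± SD, n = 3). The kinases MVK and PMVK and the decarboxylase MVD turn mevalonate into isopentenyl diphosphate. Their control levels were 17.1 ± 0.783, 79.4 ± 7.96 and 50.0 ± 4.19 TPM, and their mimic levels 16.4 ± 1.57, 79.2 ± 6.86 and 51.7 ± 6.35 TPM (n = 3). IDI1, which isomerises that unit, had the lowest fold change of this stretch, -0.09 (interval -0.23 to 0.05), and stood at 133 ± 5.35 TPM in control cells and 125 ± 8.02 TPM with the mimic. FDPS, which joins the units into farnesyl diphosphate, was the most abundant gene of the synthesis steps. It stood at 341 ± 15.9 TPM in control cells and 354 ± 17.0 TPM with the mimic, 1.04 times the control level (interval -0.08 to 0.19 on the log2 scale).

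From farnesyl diphosphate to lanosterol 0 of 3 genes passed the threshold, and 2 were below 0 (1 under either other scaling or GC adjustment). FDFT1, the squalene synthase, stood at 202 ± 8.78 TPM in control cells and 211 ± 14.2 TPM with the mimic, at a log2 fold change of 0.06. SQLE, the squalene epoxidase and a slow step of the pathway, measured 164, 172 and 162 TPM in control libraries 1 to 3 and 146, 161 and 153 TPM in mimic libraries 1 to 3. All mimic values of SQLE lay below all control values, with mimic library 2 just below control library 3. The fold change was -0.11 (SE 0.06, interval -0.24 to 0.02), and limma with Benjamini-Hochberg adjustment gave an adjusted p of 0.542. LSS, which closes the ring to lanosterol, stood at 67.8 ± 5.35 TPM in control cells and 67.8 ± 8.25 TPM with the mimic (n = 3).

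In the stretch from lanosterol to cholesterol, 8 of 9 genes were below 0 and LBR above (8 also under quantile scaling, 7 with EBP above as well under median-of-ratios scaling or GC adjustment), and 0 passed the threshold. MSMO1, the methylsterol oxidase that removes methyl groups from the ring, had the largest difference of the 29. MSMO1 (ENSG00000052802) lies on chromosome 4 at 165327623 to 165343160 on the plus strand of GRCh38. It measured 210, 221 and 217 TPM in control libraries 1 to 3 and 174, 197 and 175 TPM in mimic libraries 1 to 3. The highest mimic value lay below the lowest control value, and mimic libraries 1 and 3 were nearly equal. The mean went from 216 ± 5.88 to 182 ± 12.9 TPM (n = 3), a ratio of 0.842. Its log2 fold change was -0.25 (SE 0.06, interval -0.39 to -0.11) with an unadjusted p of 0.00311 by limma, and the Benjamini-Hochberg adjusted p of 0.148 missed the threshold.

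The enzymes that work with MSMO1 or before it in taking methyl groups off the ring had smaller differences of the same sign. NSDHL, a sterol dehydrogenase, stood at 116 ± 4.38 TPM in control cells and 108 ± 5.24 TPM with the mimic, at -0.10 (interval -0.23 to 0.03). HSD17B7, the ketoreductase of that step, measured 14.8 ± 1.10 and 13.7 ± 0.908 TPM, at -0.10 (interval -0.29 to 0.08). CYP51A1, which takes the first methyl group off lanosterol, measured 207 ± 4.10 and 194 ± 13.9 TPM, at -0.09 (interval -0.23 to 0.04). For none of these did the difference pass the test, and their groups overlapped.

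SC5D, a desaturase near the end of the pathway, measured 28.2, 29.5 and 31.0 TPM in control libraries 1 to 3 and 26.3, 28.0 and 27.5 TPM in mimic libraries 1 to 3. The groups did not overlap, but mimic library 2 and control library 1 were almost level. The fold change was -0.11 (interval -0.25 to 0.03), with an adjusted p of 0.595 by limma with Benjamini-Hochberg adjustment. DHCR7, the reductase of the last step, stood at 113 ± 6.03 TPM in control cells and 110 ± 8.85 TPM with the mimic, and the isomerase EBP 104 ± 5.47 and 103 ± 2.07 TPM (n = 3). The 2 reductases that can act on the same double bond stood at very different levels. LBR, which is also the lamin B receptor of the nuclear envelope, stood at 128 ± 5.61 TPM in control cells and 131 ± 7.21 TPM with the mimic, and TM7SF2 measured 6.91 ± 0.229 and 6.74 ± 1.43 TPM. TM7SF2 shares annotated exon sequence with VPS51 on its own strand, and how shared reads were counted is not given in the sources used here.

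Of the 4 genes that control SREBP2, 0 passed the threshold, and fold changes ran from -0.12 to -0.00021. SCAP and INSIG1 stayed below 0 under every scaling, while SREBF2 turned above 0 under median-of-ratios and quantile scaling and GC adjustment, and INSIG2 under the first and last of these. SREBF2, which encodes SREBP2, measured 86.1, 96.9 and 85.3 TPM in control libraries 1 to 3 and 83.0, 87.7 and 97.8 TPM in mimic libraries 1 to 3. The means were level, at 89.4 ± 6.45 and 89.5 ± 7.57 TPM, and the interval of the fold change ran from -0.18 to 0.17. SCAP, the escort and sterol sensor, measured 28.1, 31.4 and 28.4 TPM in control libraries 1 to 3 and 25.9, 26.4 and 28.3 TPM in mimic libraries 1 to 3. Only mimic library 3 reached into the control range for SCAP, at a fold change of -0.12 (interval -0.27 to 0.04). INSIG1, the retention protein that SREBP2 itself induces, measured 110, 121 and 112 TPM in control libraries 1 to 3 and 98.4, 106 and 109 TPM in mimic libraries 1 to 3. Its groups did not overlap, with mimic library 3 just below control library 1. The fold change of INSIG1 was -0.12 (SE 0.06, interval -0.26 to 0.01), at an adjusted p of 0.533 by limma with Benjamini-Hochberg adjustment. INSIG2, its paralog, which is less tied to SREBP2, measured 30.3, 36.3 and 35.7 TPM in control libraries 1 to 3 and 34.4, 36.6 and 29.9 TPM in mimic libraries 1 to 3. The INSIG2 groups overlapped over nearly their whole range. Per length, the level of INSIG1 was above that of INSIG2, at 114 ± 5.65 against 34.1 ± 3.30 TPM in control cells (n = 3).

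Genes that handle sterol inside the cell had fold changes from -0.12 to 0.03, with 3 of 4 below 0 (2 of 4 under either other scaling or GC adjustment). NPC1, the membrane protein that exports cholesterol from lysosomes, measured 16.1, 18.0 and 17.1 TPM in control libraries 1 to 3 and 16.7, 16.2 and 17.3 TPM in mimic libraries 1 to 3. All 3 mimic values fell inside the control range. NPC2, which hands cholesterol to NPC1 inside the lysosome, was far more abundant, at 116 ± 4.47 TPM in control cells and 119 ± 6.84 TPM with the mimic (n = 3). STARD4, a soluble sterol carrier, measured 78.5 ± 3.95 and 77.8 ± 6.61 TPM. SOAT1, which esterifies cholesterol for storage, measured 23.7 ± 1.08 and 21.8 ± 2.33 TPM, at -0.12 (interval -0.31 to 0.07). Its mimic library 2, at 24.5 TPM, lay near the top of the control range, while mimic libraries 1 and 3 lay below it at 20.7 and 20.2 TPM.

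The desaturases of fatty acids, which SREBP proteins also induce, were at 0.01 for FADS1 and -0.02 for SCD, and 0 of 2 passed. SCD, which makes oleate, measured 546, 603 and 561 TPM in control libraries 1 to 3 and 531, 581 and 575 TPM in mimic libraries 1 to 3. The groups overlapped, and the interval of its fold change was -0.15 to 0.12. FADS1 stood at 63.9 ± 2.45 TPM in control cells and 64.5 ± 1.85 TPM with the mimic (n = 3), and it overlaps annotated exons of FADS2 on the other strand. In all, 14 of the 29 genes share annotated exon sequence with another gene, 4 of them on their own strand and 13 on the other, and the use of strand in counting is not given. MSMO1, SQLE, INSIG1 and SC5D are not among the 14. Pseudogene copies, known for FDPS and HSD17B7 among others, can also take a share of such reads.

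**Figure D3:**
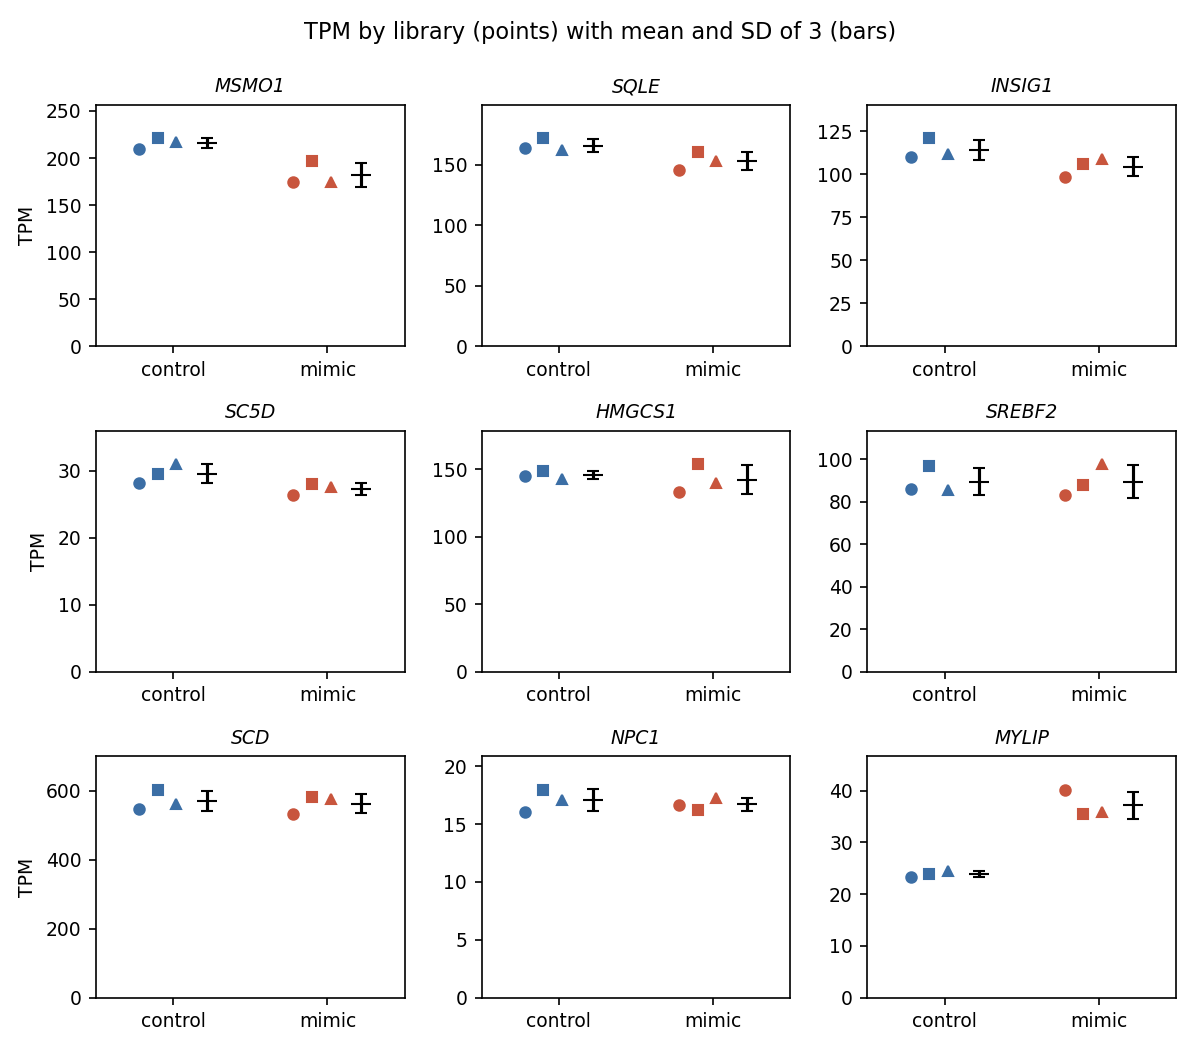
TPM per library (points, with a circle, square and triangle for replicates 1, 2 and 3) with the mean and SD of 3 libraries (bars) for 9 genes, on axes that start at 0. MSMO1, SQLE, INSIG1 and SC5D have all mimic points below the control points, HMGCS1, SREBF2, SCD and NPC1 overlap, and MYLIP, a related gene outside the 29, lies above the controls in all 3 mimic libraries.

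Libraries of the same group differed from each other by amounts like those between groups, and the deviations varied with the GC content of the transcripts. Transcript GC (longest GENCODE 29 transcript) ran from 34.2% for STARD4 to 64.2% for TM7SF2. In mimic library 3 the 9 genes with at least 55% GC were all above their mimic group mean, by a median of 0.13 on the log2 scale. In mimic library 2 the same 9 genes were all below it, with a median of -0.09. The 11 genes with at most 45% GC went the other way, with medians of -0.05 in mimic library 3 and 0.11 in mimic library 2. Over the 29 genes, Pearson's r between GC and the deviation from the group mean was 0.86 in mimic library 3, -0.83 in mimic library 2 and -0.15 in mimic library 1. It was 0.46, 0.19 and -0.66 in control libraries 1 to 3. Over all 13601 tested genes with a GC value, the same r was 0.35 in mimic library 3 and -0.38 in mimic library 2, and lay between -0.17 and 0.14 in the other 4. GC was not the only trait the deviations followed. With log2 exon length, r over the 29 genes was -0.63, 0.47 and 0.30 in control libraries 1 to 3. It was -0.33, 0.14 and 0.04 in mimic libraries 1 to 3, and over all tested genes it lay between -0.12 and 0.11. These values are descriptions: genes of a library share its reads, and deviations within a group of 3 sum to 0, so a high value in 1 library goes with low values in the others. Both GC limits were set after the values were seen.

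**Figure D4:**
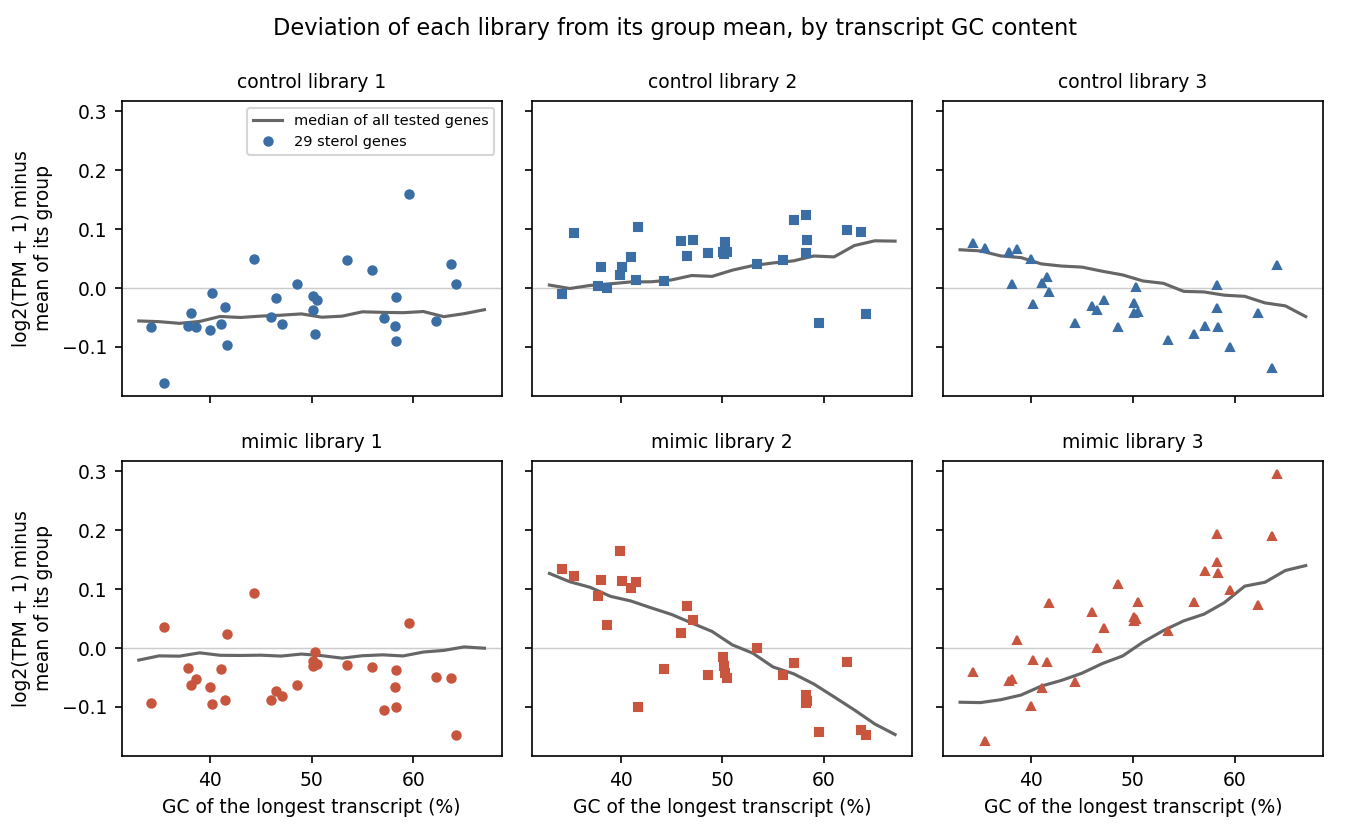
Deviation of each library from the mean of its group (log2(TPM + 1)) against the GC content of the transcript, with 1 panel per library, the 29 genes as points and the median of all tested genes as a line. Deviation increases with GC in mimic library 3 (r of 0.86) and decreases with it in mimic library 2 (r of -0.83).

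An alternative added after the data were seen took a smooth curve of GC out of each library before the same limma test. The median residual SD of the 29 genes went from 0.08 to 0.06 on the log2 scale, and that of all genes from 0.10 to 0.08. The curve was fitted to these same values, so a lower spread was in part built in. Any group difference that follows GC was taken out with it. Over all genes this gave 91 higher and 158 lower, or 0.665% and 1.15%. MSMO1 was then the 1 gene of the 29 that passed, at a log2 fold change of -0.22 (interval -0.30 to -0.13) and a Benjamini-Hochberg adjusted p of 0.0394. That call was lost when any 1 of the 6 libraries was left out of the GC-adjusted fit, with limma adjusted p from 0.0838 to 0.138 and fold changes from -0.24 to -0.19. SQLE, INSIG1 and SC5D had fold changes of -0.09, -0.11 and -0.08 in the GC-adjusted fit and did not pass. Without GC adjustment, MSMO1 had a negative fold change in all 16 other settings tried, at limma adjusted p of 0.0565 to 0.469.

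Genes around the pathway were read from lists that cover SREBP processing and sterol-dependent degradation, the isoprenoid branch, the fatty acid arm, sterol efflux and uptake, and sterol transfer between membranes. For each list the shares over all genes tested are those given above, 0.132% higher and 0.300% lower at the adjusted threshold. Of the 18 tested genes of SREBP processing and degradation, 0 rose and 0 fell, and the median fold change was -0.01. MBTPS1 and MBTPS2, the proteases that cut SREBP2 in the Golgi, measured 67.7 ± 3.09 and 13.0 ± 1.20 TPM in control cells and 67.9 ± 1.76 and 12.5 ± 0.506 TPM in mimic cells (n = 3). RNF139, a ubiquitin ligase of the endoplasmic reticulum that binds INSIG proteins, measured 41.4, 45.2 and 44.7 TPM in control libraries 1 to 3 and 49.5, 55.1 and 50.7 TPM in mimic libraries 1 to 3. Every mimic value of RNF139 lay above every control value, at a log2 fold change of 0.24 (SE 0.06) and a limma adjusted p of 0.188, or 0.0287 in the GC-adjusted fit. The latter call was also lost without any 1 library, at limma adjusted p of 0.0746 to 0.113.

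The isoprenoid branch leads from farnesyl diphosphate to protein prenylation, dolichol and ubiquinone, and 0 of its 16 genes passed in either direction. At an unadjusted p under 0.05, 2 of the 16 were lower and 0 higher, where 7.64% of all genes tested were lower and 3.05% higher. FNTB, the beta subunit of protein farnesyltransferase, stood at 21.9 ± 2.26 TPM in control cells and 17.4 ± 1.55 TPM with the mimic (n = 3), a ratio of 0.795, at a limma adjusted p of 0.235. FNTB shares exons with the annotated read-through gene CHURC1-FNTB. PDSS1, which makes the side chain of ubiquinone, measured 21.4 ± 1.97 and 18.5 ± 0.380 TPM, at a limma adjusted p of 0.376. In the fatty acid arm, 0 of 18 genes passed and 0 had an unadjusted p under 0.05, and FASN, the fatty acid synthase, measured 147 ± 11.7 and 138 ± 21.5 TPM.

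Among 13 tested genes of efflux and uptake, 1 rose, 0 fell and 12 did not pass, where 0.132% of all genes rose and 0.300% fell, while LRP1, CD36, CH25H and CYP7B1 did not reach the filter. The riser was MYLIP, a ubiquitin ligase that degrades receptors of the lipoprotein receptor family. It measured 23.3, 23.9 and 24.4 TPM in control libraries 1 to 3 and 40.2, 35.4 and 35.9 TPM in mimic libraries 1 to 3, well apart. The log2 fold change was 0.62 (SE 0.07, interval 0.46 to 0.77), with a Benjamini-Hochberg adjusted p of 0.00903 by limma. Without control library 1, control library 2 or mimic library 1 the limma adjusted p was 0.0587, 0.0587 and 0.0504, and with no filter on low values it was 0.0598, so the call was lost in each of these fits. The cholesterol exporters ABCA1 and ABCG1 measured 5.49 ± 0.977 and 15.3 ± 0.508 TPM in control cells and 5.67 ± 1.09 and 14.6 ± 1.28 TPM in mimic cells (n = 3). The intervals of their log2 fold changes were -0.30 to 0.38 and -0.25 to 0.11. The LXR genes NR1H2 and NR1H3 were at -0.07 and -0.03, and RXRB, a partner receptor, at -0.15 with an unadjusted p of 0.0432 and a limma adjusted p of 0.438. Of 18 tested sterol transfer genes 0 passed, STARD5 did not reach the filter, and OSBPL11, an oxysterol-binding protein relative, was at -0.20 with a limma adjusted p of 0.323.

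The promoters of the set were searched for known sequence sites. The letters did not enter the choice of genes, but membership of the SREBP2 pathway did. The shares below are therefore descriptions and not independent of that choice. RefSeq windows of 300 bases, 250 before to 50 after the start site (GRCh38.p14), were matched for 26 of the 29 genes. The CCAAT box, the site of the factor NF-Y, which works together with SREBP proteins, was spelled CCAAT and searched on both strands. It was found for 19 of 26 genes, 73.1%, against 43.6% of 9665 tested protein-coding genes with such a window. Some genes have more than 1 window, and a gene was counted if any of them held the box. Of all 35093 windows, counted singly and so in another unit, 34.6% held it. The GC box GGGCGG, a site of SP1, was found for 24 of 26, against 78.2% of the 9665 genes. The sterol regulatory element, searched as TCACNCCAC on both strands, was found for 1 of the 26, SREBF2, against 1.47% of the 9665 genes. SREBF2 is shown because SREBP2 is known to act on its own gene, and MSMO1 and INSIG1 for their CCAAT boxes (2 of the 4 in MSMO1), each on the strand that spells the motif, which is in capitals. No window was matched for ACAT2, FDFT1 and SQLE.
SREBF2, chr22:41832962-41832991, plus strand: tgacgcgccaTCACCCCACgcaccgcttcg
MSMO1, chr4:165327518-165327547, plus strand: ccatccgcggagCCAATggctgggaccgcc
MSMO1, chr4:165327581-165327610, plus strand: caactgcacagaCCAATcaccgcgccgaga
INSIG1, chr7:155297695-155297724, minus strand: aggcggccgcaaCCAATgggaggccggcgg

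The element of SREBF2 begins 133 bases before the start site, and the printed MSMO1 boxes 139 and 76 bases before it. Sites outside these letters or this window are not covered, and factor binding was not measured.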

How the data were processed

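RNA-seq of 6 HUVEC libraries was analysed. Libraries were made from 500 ng of RNA, per the labels' protocols, and each RNA sample pools 4 technical replicates according to the design text. The authors deposited TPM values for 45372 Ensembl IDs per library, per the file headers. The submitters' processing notes name hg38 and GRCh38.p13. An aligner or counter is not given in the sources used here. Symbols were found for 45102 IDs, and exon lengths, GC, 3′ UTRs and positions came from GENCODE 29.

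limma 3.58.1 (R 4.3.3, trended prior) was fitted on log2(TPM + 1) with group as the term, over the 13680 genes at 1 TPM or more in 3 or more libraries, with Benjamini-Hochberg adjustment and a threshold of 0.05. The 1 TPM added before the log2 makes fold changes of low genes look smaller. The fit was also tried on simulated data with noise drawn independently for each gene and library. Those data lack the GC-linked deviations that genes of a library shared, so error rates here cannot be read from them. Depth was estimated from values that are whole multiples of 1 read, within 0.1 reads for 83.0% to 83.9% of low values. GC was adjusted with a natural spline of 5 degrees of freedom.

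The 29 genes, the other lists and the rule for named genes were chosen with earlier results of these data known. The rule named all 29 genes, with every library's value for those with an unadjusted p under 0.05 or groups apart, the SREBP2 control genes, HMGCS1, SQLE, NPC1 and SCD, and from each other list the genes past the threshold and up to 3 at an unadjusted p under 0.05. SOAT1 library values, MBTPS1, MBTPS2, FASN, ABCA1, ABCG1, NR1H2 and NR1H3 were added after their values were seen. Alternatives varied the pseudocount, filter, scaling, prior, genes tested, replicate block, transcript and libraries. Deviations of same-numbered libraries correlated at 0.03, -0.09 and -0.11 over genes, so the numbers were not taken as pairs. Python 3.11.15, numpy 2.4.6, pandas 2.3.3 and matplotlib 3.10.9 were used.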

Additional observations from a re-analysis of the deposited data

How the results depend on the processing

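Of the 17 other settings, 16 called 0 of the 29 genes and the GC-adjusted fit called 1 lower, MSMO1. The median fold change of the 29 genes stayed between -0.05 and -0.0049, within the spread between libraries. The fold change kept its sign in all 17 settings for 14 of the 29 genes, MSMO1, SQLE, INSIG1 and SC5D among them, and turned in at least 1 setting for the other 15, none of them called. Over all genes, the 18 higher and 41 lower calls became 6 and 5 when low genes were kept, and 36 and 79 when 5 TPM was required. An untrended prior gave 10 and 10, while the robust one gave 37 and 82. Testing protein-coding genes alone gave 54 and 122, and GC adjustment 91 and 158. Median-of-ratios scaling gave 33 higher and quantile scaling 34. Without 1 library the counts ran from 3 to 20 higher and from 5 to 27 lower. With the replicate block they were 9 and 5, 0 of the 29 genes passed, and the MYLIP call was lost at a limma adjusted p of 0.0591. The principal transcript left 8 of the 29 genes with a 7mer or 8mer. TPM carries no depth of its own, and at 164 reads in its lowest library TM7SF2 had the widest interval of the set.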
